A study of Bos taurus with 12 samples.

Results

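Fat cells that build fatty acids need carbon as acetyl-CoA and reducing power as NADPH, and 7 genes of this supply were described in the fat of cattle. The genes were PGD, TKT, ME1, IDH1, SLC25A1, ACSS2 and PC. Every probe set of the Affymetrix bovine array that the platform annotation gives exactly 1 of these symbols was taken, which made 12 of the 24128 deposited. Of these 12, 10 passed the filter on dim signals and entered the tests, and both others, of PC, were dim and are given as values. IDH1 was read by 3 tested probe sets, ME1 by 2, and each of the other 5 genes by 1.

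The samples came from Japanese Black (JB) steers, a beef breed known for marbled meat, and Holstein (HS) steers, a dairy breed, and both breeds were fed an energy-rich diet. Intramuscular fat (IMF), the fat between muscle bundles, and subcutaneous fat (SCF), the fat beneath the skin, gave 4 groups of 3 samples: JB IMF, HS IMF, JB SCF and HS SCF. Within a breed the labels give the IMF samples the numbers 1 to 3 and the SCF samples 4 to 6. They state neither age nor whether the samples of a group, or the IMF and SCF samples, came from separate animals, so the p-values cover only the spread among the samples at hand, part of which may be technical. The study set JB against HS within each depot, and IMF against SCF over both breeds.

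In the cytosol NADPH is made by the oxidative arm of the pentose phosphate pathway, by malic enzyme and by the NADP-dependent isocitrate dehydrogenase. Citrate is built in mitochondria from acetyl-CoA and oxaloacetate, carried out by SLC25A1, and split by ATP citrate lyase into cytosolic acetyl-CoA and oxaloacetate. In ruminants much of the carbon for fatty acids instead comes from acetate, the product of rumen fermentation, which ACSS2 couples to coenzyme A. Isocitrate dehydrogenase and the pentose phosphate pathway are regarded as the main NADPH sources of ruminant fat.

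All 7 genes had lower mean levels in both IMF groups than in both SCF groups when each was read through its brightest probe set, and in 4 of them, PGD, TKT, ACSS2 and PC, the difference between depots passed the test. No member differed past the threshold between JB and HS in either depot. Signals are the deposited intensities, and differences are log2 differences of quantile-normalized log2(signal + 16), a scale on which changes of dim probe sets appear too small. The threshold was an adjusted p below 0.05 by the Benjamini-Hochberg method over all 16811 tested probe sets. Intervals are 95% confidence intervals, SE is the standard error, and levels are not compared between probe sets.

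**Figure D1:**
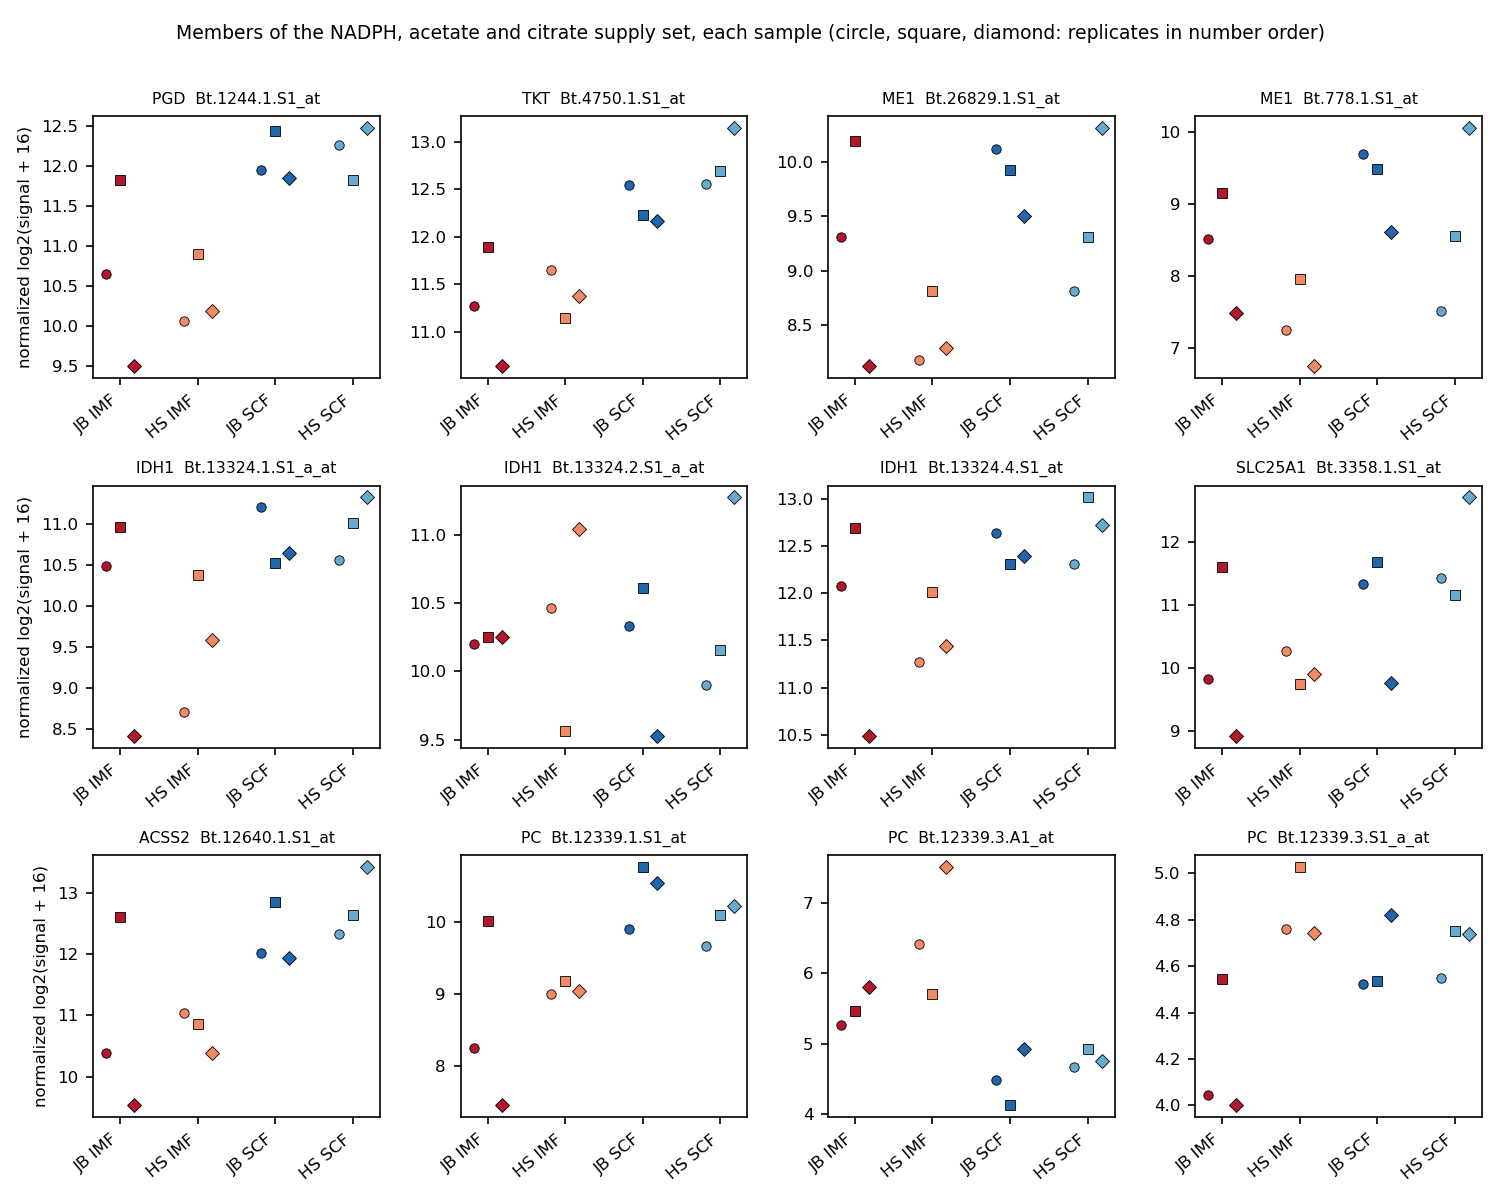
Normalized log2(signal + 16) of each of the 12 member probe sets (vertical axis, 1 panel each, own scale) in the 12 samples, by group of breed and depot. Circle, square and diamond are the replicates of a group in number order. JB IMF 2, the red square, is the highest of its group in all 10 tested panels, though in IDH1 Bt.13324.2.S1_a_at level with the diamond to the eye, and PGD and TKT have every IMF sample below every SCF sample.

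PGD encodes 6-phosphogluconate dehydrogenase, an NADPH-making enzyme of the pentose phosphate pathway. Its signal was 1745, 3627 and 787 in JB IMF 1 to 3 and 1041, 1812 and 687 in HS IMF 1 to 3, against 4411, 6519 and 3786 in JB SCF 4 to 6 and 4283, 3455 and 6818 in HS SCF 4 to 6. On the deposited scale only JB IMF 2 reached into the SCF range, and on the normalized scale the depots did not overlap. PGD was lower in IMF by 3.06-fold, a log2 difference of −1.61 ± 0.34 (SE; interval −2.35 to −0.88; limma, Benjamini-Hochberg adjusted p = 0.0106).

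TKT encodes transketolase of the non-oxidative arm, which links pentose phosphates with glycolysis and makes no NADPH itself. Its signals were 2620, 3749 and 1726 in JB IMF and 2932, 2160 and 1915 in HS IMF, against 6885, 5476 and 4562 in JB SCF and 5108, 5944 and 10121 in HS SCF. The depots did not overlap on either scale. TKT was lower in IMF by 2.34-fold (log2 difference −1.22 ± 0.22 SE, interval −1.71 to −0.74; limma, Benjamini-Hochberg adjusted p = 0.00489), and it had the lowest p of the members.

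ACSS2, the cytosolic acetyl-CoA synthetase, had the largest difference between depots among the members. Signals were 1446, 5928 and 809 in JB IMF and 2012, 1742 and 817 in HS IMF, against 4683, 8632 and 4024 in JB SCF and 4402, 5748 and 11879 in HS SCF. The depots overlapped through JB IMF 2 alone, which was above 4 of the 6 SCF samples. The log2 difference was −1.73 ± 0.44 (SE; interval −2.69 to −0.77), 3.32-fold lower in IMF (limma, Benjamini-Hochberg adjusted p = 0.0277).

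PC encodes pyruvate carboxylase, which makes mitochondrial oxaloacetate from pyruvate and so feeds citrate formation. Its tested probe set had signals of 314, 1066 and 174 in JB IMF and 509, 525 and 282 in HS IMF, against 1068, 1928 and 1565 in JB SCF and 780, 1123 and 1247 in HS SCF. Again the sample that reached into the SCF range was JB IMF 2. The log2 difference of −1.37 ± 0.36 (SE; interval −2.15 to −0.59), 2.59-fold lower in IMF, passed (limma, Benjamini-Hochberg adjusted p = 0.0304).

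A dim PC probe set, Bt.12339.3.A1_at, fell below the filter, and its values are given for completeness. Its signals were 22.9, 29.7 and 39.4 in JB IMF and 69.9, 36.5 and 102 in HS IMF, against 6.71, 2.10 and 15.3 in JB SCF and 8.47, 15.1 and 11.6 in HS SCF. Every IMF sample lay above every SCF sample, with a log2 difference of 1.38 ± 0.27 (SE; limma, Benjamini-Hochberg adjusted p = 0.00841, in a fit without the filter on dim probe sets). The other dim PC probe set, Bt.12339.3.S1_a_at, had signals from 0 up to 16.4 in the IMF samples and from 6.22 up to 13.1 in the SCF samples, with a log2 difference of −0.13 ± 0.16 (SE) in that fit. No direction for PC is read from signals this low, and the result for PC rests on its 1 tested probe set.

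SLC25A1, the mitochondrial citrate carrier, had signals of 972, 3163 and 531 in JB IMF and 1190, 797 and 542 in HS IMF, against 2852, 3769 and 904 in JB SCF and 2630, 2241 and 7673 in HS SCF. JB IMF 2 was above 4 SCF samples, and JB SCF 6 was below 2 IMF samples other than JB IMF 2. The log2 difference of −1.29 ± 0.47 (SE; interval −2.31 to −0.28) did not pass (limma, Benjamini-Hochberg adjusted p = 0.0984).

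ME1, the cytosolic NADP-dependent malic enzyme, was read by 2 probe sets, and neither passed. The brighter one, Bt.26829.1.S1_at, had signals of 675, 1204 and 292 in JB IMF and 288, 400 and 167 in HS IMF, against 1239, 1052 and 746 in JB SCF and 427, 677 and 1326 in HS SCF. The second, Bt.778.1.S1_at, had 382, 572 and 178 in JB IMF and 140, 208 and 63.5 in HS IMF, against 929, 800 and 396 in JB SCF and 161, 394 and 1116 in HS SCF. Both showed the same order of groups by mean, JB SCF, HS SCF, JB IMF and HS IMF from high to low, and neighbouring groups in that order overlapped. Their log2 differences between depots were −0.84 ± 0.35 and −1.14 ± 0.43 (SE; limma, Benjamini-Hochberg adjusted p = 0.141 and 0.113).

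IDH1, the cytosolic and peroxisomal NADP-dependent isocitrate dehydrogenase, had 3 probe sets that did not give the same picture. The brightest, Bt.13324.4.S1_at, had signals of 4815, 6366 and 1558 in JB IMF and 2318, 3733 and 2029 in HS IMF, against 7432, 5860 and 5365 in JB SCF and 4370, 7728 and 7752 in HS SCF. Its log2 difference was −0.90 ± 0.32 (SE), and that of Bt.13324.1.S1_a_at was −1.12 ± 0.42 (limma, Benjamini-Hochberg adjusted p = 0.0977 and 0.106). For Bt.13324.1.S1_a_at the 6 IMF signals ran from 362 to 2032 around a median of 831, and the 6 SCF signals from 1465 to 2787 around 1884. The third, Bt.13324.2.S1_a_at, had 687 to 1448 in IMF (median 1298) and 761 to 2660 in SCF (median 1297), with a log2 difference of −0.0032 ± 0.31 (SE, interval −0.67 to 0.67).

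Over both breeds, 4 of the 10 tested member probe sets passed as lower in IMF and 0 as higher, while 11% of all tested probe sets passed in either direction and 6.33% as lower. The median log2 difference of the 10 was −1.18, and over all 16811 it was −0.06. All 10 differences were negative, as were 55.5% over all probe sets, and 9 of the 10 had an unadjusted p below 0.05, which 27.2% of all probe sets had. Complete separation with IMF below SCF, which 3.13% of all probe sets showed, was seen in 2 of the 10, PGD and TKT.

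Each of these calls depended on samples to a different degree. PGD and TKT passed with each of the 12 samples left out in turn. ACSS2 passed in 7 of those 12 fits and lost its call without JB IMF 1, JB IMF 3, JB SCF 5, HS IMF 3 or HS SCF 6 (log2 difference −2.18 to −1.41 and limma adjusted p from 0.000782 to 0.0770 over the 12). PC passed in 5 of 12 and lost its call without JB IMF 1, JB IMF 3, JB SCF 5, JB SCF 6, HS IMF 3, HS SCF 5 or HS SCF 6 (−1.73 to −1.09 and adjusted p from 0.000812 to 0.0814). Over the 12 fits 2 to 8 of the 10 member probe sets passed, and the highest count, 8, came without JB IMF 2. The count over all probe sets moved with the sample left out too, from 923 to 2338, against 1848 with all samples. The highest member count is therefore not read as a result about the members.

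**Figure D2:**
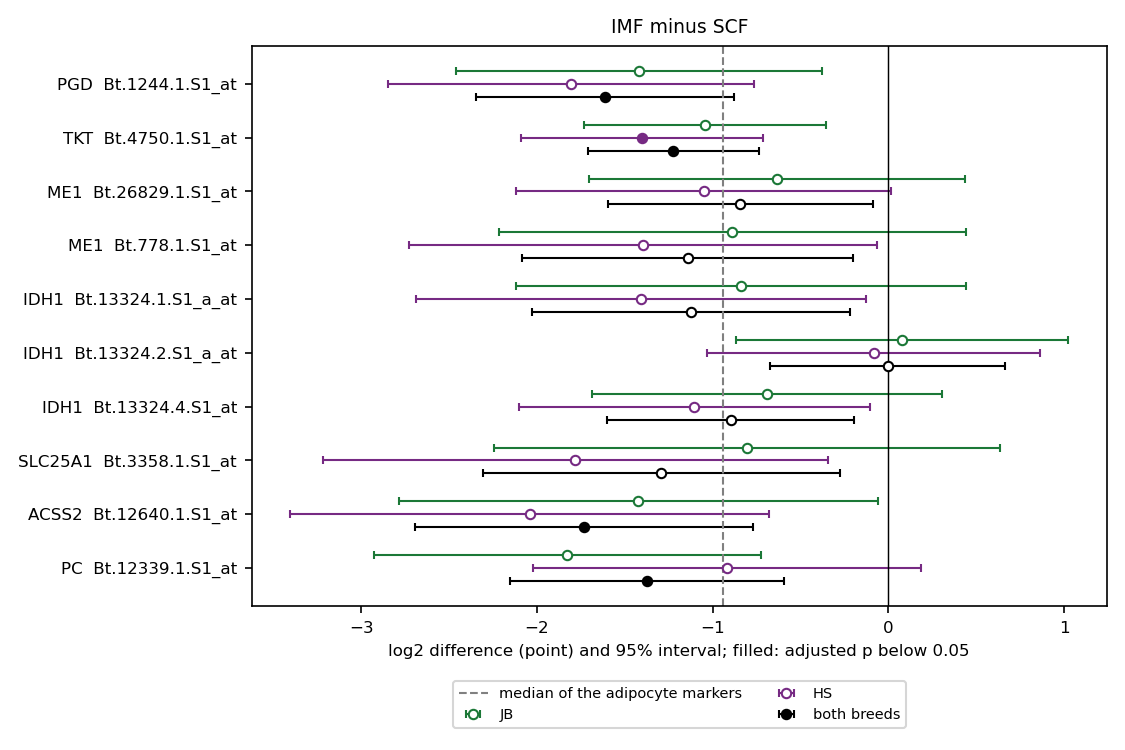
Log2 difference of IMF minus SCF (horizontal axis) with its 95% interval for the 10 tested member probe sets, in JB, in HS and over both breeds; filled points have an adjusted p below 0.05. The dashed line is the median difference of the 9 adipocyte markers over both breeds, −0.94, and 4 members pass over both breeds and TKT also in HS.

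Markers of other cells moved with depot as well. Every sample held adipocyte RNA: FABP4, a fatty acid binding protein of fat cells, had signals between 11591 and 15285 in IMF and between 15400 and 17309 in SCF. In bulk tissue, fewer cells of a type and less RNA per cell cannot be told apart. The mean log2 level of 9 adipocyte marker genes was 9.69 to 11.80 in IMF and at least 11.61 in every SCF sample, and all 9 had a negative difference between depots, with a median of −0.94, of which only that of CFD passed. The lowest and the highest IMF sample in that mean were JB IMF 3 at 9.69 and JB IMF 2 at 11.80, the same samples that were lowest (9.24) and highest (11.54) in the mean of the 7 member genes. Skeletal muscle fibre markers, 12 genes, lay at 12.23 to 13.25 in IMF and 6.22 to 9.02 in SCF, and 10 of the 12 passed as higher in IMF. Within SCF the muscle mean was highest in JB SCF 6 (8.88) and HS SCF 5 (9.02) and 6.22 to 6.61 in the other 4. Without both of these samples PGD and TKT passed, ACSS2 stood at −1.87 (limma adjusted p = 0.0834) and PC at −1.32 (adjusted p = 0.128). Smooth muscle and pericyte markers, 5 genes, lay at 10.97 to 13.23 in IMF and 8.60 to 9.72 in SCF, and 4 of the 5 passed as higher in IMF, with a median difference of 2.92. Macrophage markers, 7 genes, lay at 7.34 to 9.09 in IMF and 9.85 to 11.11 in SCF, and 6 of the 7 passed as lower in IMF. No listed adipocyte, muscle or macrophage marker had a signal of 0 in any sample, and MYL2, at a median of 0.02 in SCF, came nearest. Of 4 endothelial and 4 erythroid markers 0 passed between depots, and of 5 stromal progenitor markers 1 passed, as lower in IMF. The part of skeletal muscle, smooth muscle, pericyte and macrophage RNA in the member differences was not tested.

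**Figure D3:**
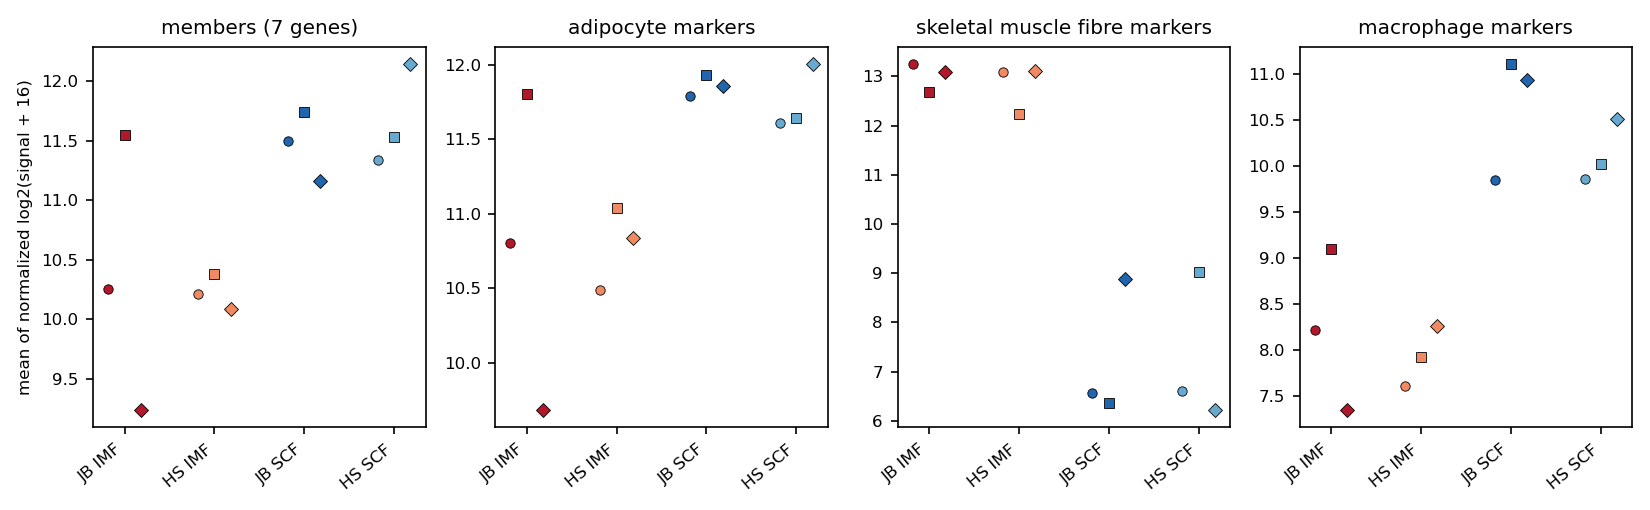
Mean normalized log2(signal + 16) (vertical axis, own scale in each panel) of the 7 member genes and of the adipocyte, skeletal muscle fibre and macrophage marker genes, 1 probe set per gene, in each of the 12 samples. In IMF the members and the adipocyte markers have the same highest sample, JB IMF 2, and the same lowest, JB IMF 3, and JB SCF 6 and HS SCF 5 carry more muscle signal than the other SCF samples.

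When each array was centred on the mean of its 9 adipocyte markers, the log2 differences between depots became −0.58 for PGD, −0.20 for TKT, −0.70 for ACSS2 and −0.34 for PC, and none of these 4 passed (limma, Benjamini-Hochberg adjusted p = 0.205, 0.670, 0.138 and 0.451). Such centring moves the depot difference of every probe set upward by the same amount, so these smaller differences were set in advance. It also brings in the spread of the markers, and the SE of TKT was 0.42 there, against 0.22 before. On that scale the median of all probe sets lay at 0.97 and that of the members at −0.16, with 7 of 10 negative. Of all 16811 probe sets 8173 passed there in either direction, and only 61, or 0.363% of all, passed as lower in IMF. The lost calls of these 4 are thus not read as a result about the members. The IDH1 probe set Bt.13324.2.S1_a_at passed as higher in IMF there (1.02 ± 0.43 SE, limma adjusted p = 0.0445). Its value was close to the median of all probe sets, so this call is not read as a result about IDH1.

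Within single breeds the depot differences of the members kept mostly the same sign. In JB, 0 of 10 passed, with 3.07% of all probe sets passing in either direction and 0.916% as lower, and 4 of 10 had an unadjusted p below 0.05 (13.3% over all). The largest differences in JB were those of PC, −1.83 ± 0.51 (SE; limma, Benjamini-Hochberg adjusted p = 0.0857), ACSS2, −1.42 ± 0.63 (adjusted p = 0.345), and PGD, −1.42 ± 0.48 (adjusted p = 0.176). TKT stood at −1.04 ± 0.32 (limma adjusted p = 0.120), SLC25A1 at −0.80 ± 0.66, the ME1 probe sets at −0.63 and −0.89, and the IDH1 probe sets at −0.84, 0.08 and −0.69. Over the fits that left out 1 sample, 0 to 4 member probe sets passed in JB, the 4 without JB IMF 2. In those fits 218 to 712 of all probe sets passed in JB, against 516 with all samples.

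In HS, 1 of 10 passed, with 3.32% of all probe sets passing in either direction and 1.52% as lower, and 7 of 10 had an unadjusted p below 0.05 (21.4% over all). That member was TKT, at −1.40 ± 0.32 (SE; limma, Benjamini-Hochberg adjusted p = 0.0340), and its call was lost in 8 of the 12 fits that left out 1 sample. ACSS2 stood at −2.04 ± 0.63 (limma adjusted p = 0.0981), PGD at −1.81 ± 0.48 (0.0628), SLC25A1 at −1.78 ± 0.66 (0.152) and PC at −0.92 ± 0.51 (0.310). ME1 stood at −1.05 and −1.40 and IDH1 at −1.41, −0.08 and −1.10. The JB IMF samples lay below all JB SCF samples in 2 of 10 member probe sets, a separation that 16.2% of all probe sets showed, and the HS IMF samples below all HS SCF samples in 8 of 10, which 12.7% showed. In every tested member probe set except IDH1 Bt.13324.2.S1_a_at, JB IMF spread more widely than HS IMF. For example, ACSS2 averaged 10.85 ± 1.59 in JB IMF and 10.76 ± 0.34 in HS IMF, and PC 8.57 ± 1.31 in JB IMF and 9.07 ± 0.09 in HS IMF (normalized log2, SD, n = 3 each). The IDH1 probe set Bt.13324.2.S1_a_at had the opposite, 10.23 ± 0.03 in JB IMF and 10.36 ± 0.74 in HS IMF (SD, n = 3 each).

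The breeds were compared within IMF next, and 0 of 10 member probe sets passed or had an unadjusted p below 0.05, where 0.0238% of all probe sets passed and 10.2% had such a p. ME1 had the largest differences, 0.78 ± 0.49 (SE; interval −0.29 to 1.85) and 1.07 ± 0.61 (interval −0.26 to 2.40) in its 2 probe sets (limma, Benjamini-Hochberg adjusted p = 0.558 and 0.528), and on the deposited scale JB IMF 3 lay within the HS range in both. PC had −0.50 ± 0.51 (interval −1.60 to 0.60), and the dim PC probe sets had −1.04 and −0.65 (limma adjusted p = 0.485 for both). The intervals of PGD (−0.76 to 1.32), ACSS2 (−1.27 to 1.45) and SLC25A1 (−1.30 to 1.58) include changes of more than 2-fold in either direction or, for PGD, upward only. TKT was bounded more closely, at −0.13 ± 0.32 (SE; interval −0.81 to 0.56), and the IDH1 probe sets stood at 0.40, −0.12 and 0.17. The median of the 10 was 0.16, and that of all probe sets 0.10.

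Within SCF, 0 of 10 passed and 0 had an unadjusted p below 0.05, where 0.00595% of all probe sets passed and 3.56% had such a p. SLC25A1 stood at −0.84 ± 0.66 (SE; interval −2.27 to 0.60), ACSS2 at −0.53 ± 0.63 and TKT at −0.48 ± 0.32, and each of these had its highest signal in HS SCF 6. The normalized TKT levels of JB SCF lay below those of HS SCF without overlap, as 6.2% of all probe sets did in that direction. The margin was narrow, with JB SCF 4 at 12.548 and HS SCF 4 at 12.552. On the deposited scale the groups overlapped, JB SCF 4 at 6885 being above HS SCF 4 at 5108 and HS SCF 5 at 5944. ME1 stood at 0.36 and 0.56, PC at 0.41, PGD at −0.11 and IDH1 at −0.17, −0.29 and −0.24. All 10 had an adjusted p of 1.00 (limma, Benjamini-Hochberg).

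**Figure D4:**
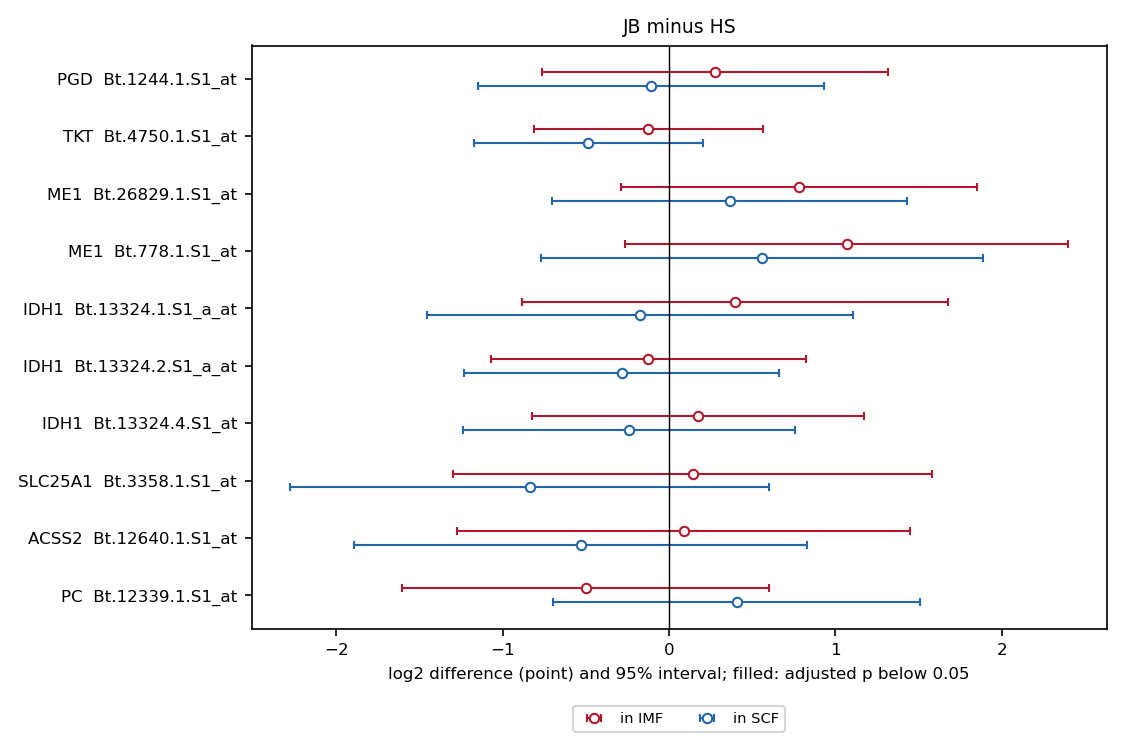
Log2 difference of JB minus HS (horizontal axis) with its 95% interval for the 10 tested member probe sets, within IMF and within SCF. Every interval crosses 0, and ME1 has the highest estimate in IMF, 1.07.

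The difference of the breed differences, IMF minus SCF, was tested as an interaction, and 0 of 10 members and 0% of all probe sets passed (limma with Benjamini-Hochberg adjustment; 2.14% of all probe sets and 0 members had an unadjusted p below 0.05). The estimates were positive for 9 of 10, up to 0.98 ± 0.93 (SE; interval −1.06 to 3.01) for SLC25A1, and −0.91 ± 0.72 for PC.

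Single samples moved the members together. After normalization JB IMF 2 was the highest of its group in 10 of 10 tested member probe sets and JB IMF 3 the lowest in 9. In the deposited signals JB IMF 2 was the highest in 9, and in IDH1 Bt.13324.2.S1_a_at it was the lowest. After normalization JB SCF 6 was the lowest of its group in 7, HS SCF 6 the highest in 9 and HS SCF 4 the lowest in 8. The summed deposited signal of the brightest probe sets of the 7 genes was 5876 to 25102 in JB IMF and 6438 to 11168 in HS IMF, against 20951 to 33235 in JB SCF and 22000 to 46817 in HS SCF.

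The mitochondrial counterparts of the members differed among themselves. IDH2, the mitochondrial NADP-dependent isocitrate dehydrogenase, had signals of 1156, 1750 and 2468 in JB IMF and 916, 1134 and 1908 in HS IMF (lowest to highest), against 594, 637 and 682 in JB SCF and 377, 445 and 732 in HS SCF. It was higher in IMF without overlap, by 1.53 ± 0.25 on the log2 scale (SE; limma, Benjamini-Hochberg adjusted p = 0.0023), and it passed in JB (1.46, adjusted p = 0.0438) and in HS (1.60, adjusted p = 0.0299) too. ACSS1, the mitochondrial acetyl-CoA synthetase, stood at −0.04 in its brighter probe set and −0.14 in the other, and ME2, the mitochondrial NAD-dependent malic enzyme, at −0.26 ± 0.19 (limma adjusted p = 0.917, 0.710 and 0.425). ME3, the mitochondrial NADP-dependent malic enzyme, was lower in IMF in its brighter probe set, with a log2 difference of −0.79 ± 0.23 (SE; limma adjusted p = 0.0457), and stood at −0.05 in the other. Citrate synthase, CS, stood at 0.55 ± 0.18 and 0.42 in its 2 probe sets and did not pass (limma adjusted p = 0.0757 for the brighter).

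The ratio of a member to its counterpart within each array was compared between the 6 IMF and the 6 SCF samples, a comparison chosen after the values were seen. Its p-values therefore describe differences already seen and add no separate support. Only the change of such a ratio is read, since signals of different probe sets are on different scales. Each gene was first read through its brightest probe set. The log2 ratio of IDH1 to IDH2 lay between −0.66 and 2.45 in IMF and between 2.95 and 4.07 in SCF, 5.22-fold lower in IMF (two-sided exact permutation test, p = 0.00216, the smallest the 924 splits allow, and 0.00433 adjusted over 4 ratios). Through the other IDH1 probe sets the ratio to IDH2 was 6.27-fold lower in IMF (Bt.13324.1.S1_a_at) and 2.84-fold lower (Bt.13324.2.S1_a_at, −0.88 to 0.35 in IMF and 0.15 to 2.54 in SCF), with exact permutation p of 0.00216 and 0.00433 (0.00758 and 0.0101 adjusted over 7 probe set pairs). That of ACSS2 to ACSS1 was 1.61 to 3.57 in IMF and 3.08 to 4.91 in SCF, 3.11-fold lower in IMF (exact permutation p = 0.00866, adjusted 0.0115). Through the other ACSS1 probe set it was 2.95-fold lower (exact permutation p = 0.0152, 0.0212 adjusted over the 7 pairs). The ME1 to ME2 ratio did not pass, with a log2 difference of −0.60 (exact permutation p = 0.128, adjusted 0.128), nor did it through the second ME1 probe set (−0.86, exact permutation p = 0.0606). A ratio of ME1 to ME3, the NADP-dependent mitochondrial form whose differences are given above, was not formed. For comparison, the ratio of the acetyl-CoA carboxylases ACACA, the lipogenic form, to ACACB, the mitochondria-bound form abundant in muscle, was 38.4-fold lower in IMF (exact permutation p = 0.00216, adjusted 0.00433). On the normalized scale IDH2 and ACACB were each higher in every IMF sample than in any SCF sample, so their ratios largely repeat that separation. IDH1 Bt.13324.2.S1_a_at and ACSS1 hardly differed between depots. The ratio of that probe set to IDH2 and that of ACSS2 to ACSS1 thus mostly repeat the differences of IDH2 and ACSS2. The muscle marker means given above differed between depots in the same samples, and their part in these ratios was not tested.

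**Figure D5:**
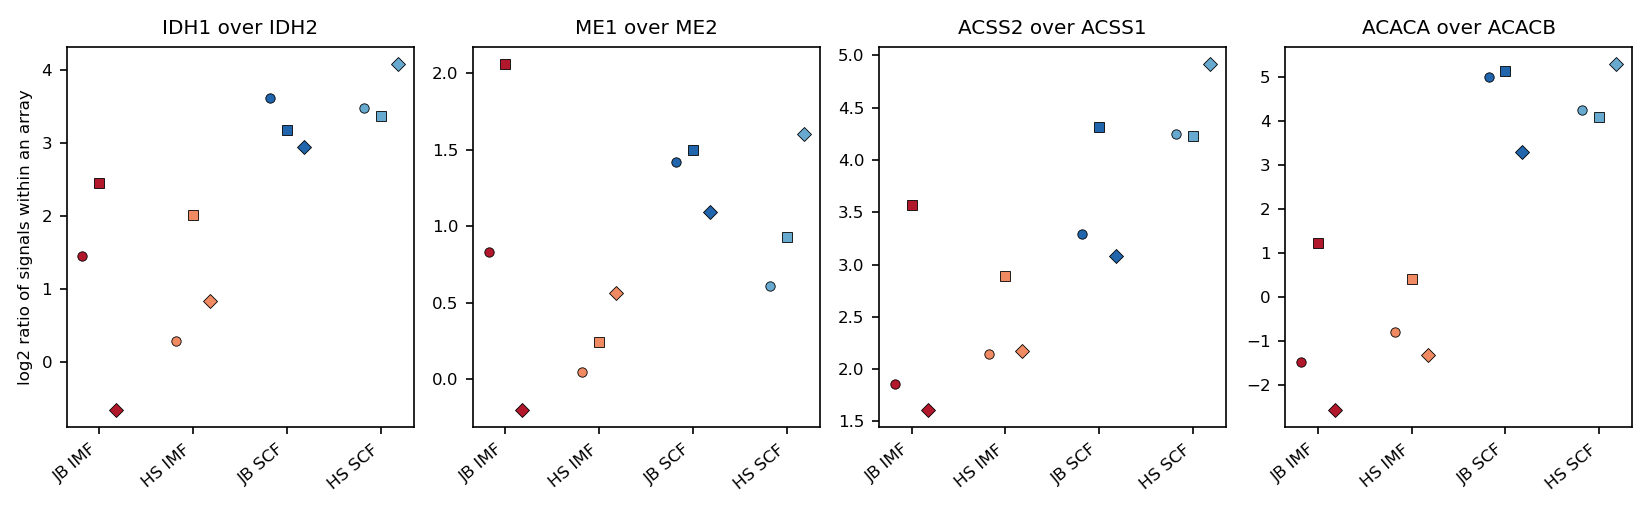
Log2 ratio of deposited signals within each array (vertical axis, own scale) for IDH1 over IDH2, ME1 over ME2, ACSS2 over ACSS1 and ACACA over ACACB, by group of breed and depot. The IDH and ACAC ratios separate IMF from SCF, and the ACSS and ME ratios overlap.

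The rest of the pathway was described by lists of genes, each read through its brightest probe set. Their counts stand beside the 11% of all probe sets that passed between depots in either direction. Of 5 further tested genes of the pentose phosphate pathway, 0 passed between depots, and their median was −1.14. TALDO1, transaldolase, stood at −1.14 ± 0.35 (SE), TKTL1 at −1.22, PGLS, 6-phosphogluconolactonase, at −0.77 and RPIA, ribose 5-phosphate isomerase, at −1.18, with limma adjusted p of 0.0560, 0.0553, 0.0546 and 0.128, and RPE stood at 0.57. SLC25A10 was not analysed here. Of 12 tested genes among the other NADPH sources, 1 passed as higher in IMF, IDH2, and 2 as lower, ME3 and NADK, the cytosolic NAD kinase that makes NADP (−1.10 ± 0.27 SE, limma adjusted p = 0.0214). Their median was −0.22.

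Of 7 tested genes of acetate and ketone use other than ACSS2, 1 passed in each direction. SLC16A1, the monocarboxylate transporter MCT1, was lower in IMF (−1.04 ± 0.26 SE, limma adjusted p = 0.0268), and SLC16A3, the lactate exporter MCT4 of glycolytic muscle fibres, was higher in IMF (0.95 ± 0.21 SE, limma adjusted p = 0.0144), at 0.15 in JB and 1.76 in HS. The median of these 7 was −0.46.

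Of 21 tested genes of citrate and pyruvate supply, 2 passed as higher in IMF, 1 as lower, and 16 were positive, with a median of 0.19. These 3 calls among 21 are near the 11% over all probe sets, so they are given as values of single genes. The lower one was ACLY, ATP citrate lyase, with signals of 821, 941 and 1357 in JB IMF and 273, 726 and 946 in HS IMF (lowest to highest), against 1056, 1777 and 2086 in JB SCF and 1498, 2255 and 3399 in HS SCF. Its log2 difference was −1.10 ± 0.25 over both breeds (SE; limma, Benjamini-Hochberg adjusted p = 0.0171), −0.60 in JB (adjusted p = 0.539) and −1.60 in HS (adjusted p = 0.0337). The higher ones were PDHX, a structural subunit of pyruvate dehydrogenase (0.62, limma adjusted p = 0.0299), and PDP1, the phosphatase that activates that complex (0.78, adjusted p = 0.0352). CS, described above, GOT2, the mitochondrial aspartate aminotransferase (0.68), and IDH3A, a subunit of the NAD-dependent isocitrate dehydrogenase (0.39), were among the positive ones that did not pass (limma adjusted p = 0.0757, 0.0876 and 0.387).

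Of 11 tested genes of fatty acid synthesis itself, 3 passed as lower in IMF and 1 as higher, with a median of −0.84. ACACA (−1.58 ± 0.40 SE), SCD, the stearoyl-CoA desaturase (−0.87 ± 0.21), and OXSM, of mitochondrial fatty acid synthesis (−0.84 ± 0.22), were lower, and ACACB was higher (3.63 ± 0.31), at limma adjusted p of 0.0263, 0.0213, 0.0327 and 1.66e-05. FASN, fatty acid synthase, stood at −0.84 ± 0.33 (limma adjusted p = 0.128). No gene of these lists passed in either breed comparison or in the interaction.

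For each member the 3 named genes with the most similar profile over the 12 samples were found by root mean square distance between log2 levels centred on each gene's mean, among 7807 other genes. This is a description, and the samples share depot and cell makeup. IDH1 lay nearest to LEP (distance 0.17 log2 units), DGAT2 (0.19) and C18H19orf12 (0.21), where its median distance to all genes was 0.76. TKT lay nearest to ECHS1 (0.21), ABHD14B (0.24) and SH3D21 (0.25). ACSS2 lay nearest to PCK2 (0.24), AQP7 (0.39) and the member PGD (0.42), and PGD to PCK2 (0.30), AQP7 (0.31) and LOC508455 (0.31). SLC25A1 lay nearest to AGPAT2 (0.35), NQO1 (0.44) and ACACA (0.44), and ME1 to PIR (0.26), ACAT1 (0.28) and AGMO (0.29). PC lay nearest to FCER1G (0.33), XPNPEP2 (0.36) and CORO1A (0.36). Median distances to all genes were 0.76 for TKT, 1.16 for ACSS2, 1.01 for PGD, 1.08 for SLC25A1, 0.81 for ME1 and 0.96 for PC.

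Across the arrays the median deposited signal was 77.6 to 88.3, except in HS IMF 3 at 58.8. The mean correlation of HS IMF 3 with its own group, 0.862, was also the lowest. In the HS arrays this correlation ran from 0.862 to 0.944 and in the JB arrays from 0.963 to 0.975, without overlap. Agreement among arrays thus differed with breed, and its part in the breed comparisons and in the counts within breeds was not tested. For the GAPDH control, the ratio of 3' to 5' signal, a measure of RNA degradation, reached 4.06 in HS SCF 5, and the other samples had 1.19 to 2.40. With 3 arrays a group, the number of arrays limits the precision of every value above, and the spread among samples sets it as well. Among the members the SE of the depot difference over both breeds ran from 0.22 for TKT to 0.47 for SLC25A1.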

How the data were processed

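Per the labels' protocols, biotin-labelled cRNA made from total RNA was put on Affymetrix bovine arrays. Software named in the submitters' processing notes was GCOS 1.1.1 and, from Affymetrix, Expression Console 1.1. The deposited values are linear intensities of 24128 probe sets. How they were summarized and normalized is not given in the sources used here. Genes were named from the platform annotation, updated through Entrez identifiers (13263 of 13292 probe sets with 1 symbol matched). 86 probe sets had several symbols and 10638 none.

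Intensities were turned into log2(signal + 16) and quantile normalized. Control probe sets (112) and then the dimmest 30% by mean were removed, and 16811 remained. A model with 4 group means over all 12 samples was fitted by lmFit and eBayes of limma 3.58.1, under R 4.3.3 and with jsonlite 2.0.0; the degrees of freedom were 8 residual and 4.05 prior. Tests used Benjamini-Hochberg adjustment over all tested probe sets in each of 6 comparisons. Ratios, their permutation tests and distances were computed in R as well. Summaries and figures were made in Python 3.11.15 with pandas 2.3.3, numpy 2.4.6 and matplotlib 3.10.9. The procedure was tested on simulated data.

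The members, gene lists and tests were chosen with earlier results of these data known. Named were all member probe sets, their isoenzymes and partners, up to 3 genes past the threshold per list, and the 3 likest genes per member. Other genes of the lists were named after their values were seen. The alternatives were other filters, normalizations and pseudocounts, centring on adipocyte markers, a trended variance, array weights, fewer groups in the fit, a replicate block, 1 probe set per gene and samples left out. The ratios within arrays were added after the data were seen.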

Additional observations from a re-analysis of the deposited data

How the results depend on the processing

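The number of member probe sets past the threshold was 0 under all 25 alternatives in each breed comparison and all 23 in the interaction. The replicate block was fitted for the breed comparisons only. Over both breeds the depot count of 4 became 1 with centring on adipocyte markers. That call was IDH1 Bt.13324.2.S1_a_at as higher in IMF, and none of the 4 lower calls was kept. The count became 2 when JB SCF 6 and HS SCF 5 were left out together, and it ran from 2 to 8 with each sample left out. In JB the count of 0 became 4 with array weights and ran from 0 to 4 with each sample left out. In HS the count of 1 became 2 with the values as deposited or 1 probe set per gene, 0 with centring on adipocyte markers, array weights, only the compared groups, or when either HS IMF 3 and HS SCF 4 or JB SCF 6 and HS SCF 5 were left out together, and it ran from 0 to 3. PGD and TKT passed over both breeds in 22 of 23 alternatives, ACSS2 in 16 and PC in 14. Over all probe sets 1848 passed between depots, 784 higher and 1064 lower in IMF. Deposited values without normalization gave 579 higher and 1318 lower, with centring on adipocyte markers 8112 and 61, with array weights 3154 passed, without JB SCF 6 and HS SCF 5 800, and with each sample left out 923 to 2338. In JB 516 passed (218 to 712 with a sample left out) and in HS 558 (191 to 1117). JB and HS samples of 1 depot share replicate numbers, and these were not taken as pairs: the correlation of same-numbered samples was 0.088, 0.12 and −0.04 in IMF and −0.16, −0.012 and −0.28 in SCF. IMF and SCF samples share no numbers, and whether they share animals was not tested. With the replicate block 2 probe sets passed in IMF and 1 in SCF, against 4 and 1 without it. The cause of these shifts was not tested.

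Of 1422 member values under the alternatives 58 changed sign, and 1 of those was past the threshold, that of IDH1 Bt.13324.2.S1_a_at under adipocyte centring. With centring on adipocyte markers the depot difference over both breeds was 1.02 for that probe set, 0.13 for IDH1 Bt.13324.4.S1_at and 0.19 for ME1 Bt.26829.1.S1_at. In JB it was 0.26 and 0.40 for the IDH1 probe sets Bt.13324.1.S1_a_at and Bt.13324.4.S1_at, 0.46 and 0.21 for ME1 Bt.26829.1.S1_at and Bt.778.1.S1_at, 0.29 for SLC25A1 and 0.050 for TKT. In HS it was 0.88 for IDH1 Bt.13324.2.S1_a_at and 0.044 for PC. With array weights the breed difference in IMF was −0.41 for ACSS2, 0.10 for IDH1 Bt.13324.2.S1_a_at and −0.12 for SLC25A1, that in SCF 0.088 for PGD, and the depot difference in JB of IDH1 Bt.13324.2.S1_a_at −0.060. With the values as deposited the breed difference in IMF was 0.21 for IDH1 Bt.13324.2.S1_a_at and 0.16 for TKT, and that in SCF 0.036 for PGD, and median centring gave 0.0051 for that IDH1 probe set in IMF. Without both HS IMF 3 and HS SCF 4 the breed difference in IMF was −0.096 for ACSS2 and 0.22 for IDH1 Bt.13324.2.S1_a_at, and that in SCF −0.038 for ME1 Bt.778.1.S1_at. With JB SCF 6 and HS SCF 5 left out together, IDH1 Bt.13324.2.S1_a_at had −0.24 between depots in JB and −0.0089 in the interaction.

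With each sample left out in turn, the breed difference in IMF ran from −0.80 to 0.74 for ACSS2, −0.11 to 1.17, −0.52 to 0.22 and −0.29 to 0.80 for the IDH1 probe sets Bt.13324.1.S1_a_at, Bt.13324.2.S1_a_at and Bt.13324.4.S1_at, −1.22 to 0.061 for PC, −0.30 to 0.86 for PGD, −0.60 to 0.74 for SLC25A1 and −0.44 to 0.19 for TKT. In SCF it ran from −0.38 to 0.0063 and −0.56 to 0.13 for the first and second of those IDH1 probe sets, −0.039 to 1.24 for ME1 Bt.778.1.S1_at and −0.29 to 0.034 for PGD. The depot difference of IDH1 Bt.13324.2.S1_a_at ran from −0.17 to 0.20 over both breeds, −0.24 to 0.31 in JB and −0.42 to 0.33 in HS. The interaction ran from −0.27 to 1.27 for ACSS2, −0.25 to 0.50 and −0.054 to 1.04 for IDH1 Bt.13324.2.S1_a_at and Bt.13324.4.S1_at, −0.076 to 0.96 and −0.17 to 1.11 for the ME1 probe sets, and −0.20 to 0.97 for PGD. Dim probe sets limit PC, and 3 arrays a group leave most intervals wider than a 2-fold change.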

Other observations

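Among regulators of lipid synthesis genes, 0 of 10 tested genes passed between depots, where 11% of all probe sets passed, and their median log2 difference of IMF minus SCF was −0.16. SREBF1, the sterol regulatory factor of lipogenic genes, stood at −0.13 ± 0.17 (SE), and MLXIPL, the carbohydrate response factor ChREBP, at −0.67 ± 0.30 (limma, Benjamini-Hochberg adjusted p = 0.662 and 0.175). The smallest p of this list was that of MID1IP1, a partner of acetyl-CoA carboxylase, at −0.49 ± 0.22 (limma adjusted p = 0.166). In JB it stood at 0.16 and in HS at −1.15 ± 0.31, where the HS IMF samples lay below all HS SCF samples (limma adjusted p = 0.932 in JB and 0.0641 in HS). MLXIPL stood at −0.34 in JB and −1.01 in HS (limma adjusted p = 0.871 and 0.200).

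Over all probe sets 11% passed between depots in either direction and 6.33% as lower in IMF. Of 10 tested target and redox genes of the stress response factor NRF2, a list that also holds NFE2L2 and KEAP1, 2 passed as lower in IMF and 0 as higher, with a median of −0.46. They were NQO1, a quinone reductase that uses NADPH, at −1.44 ± 0.32 (SE), and SRXN1, sulfiredoxin, at −1.39 ± 0.30 (limma, Benjamini-Hochberg adjusted p = 0.0144 and 0.0117). NFE2L2, which encodes NRF2, stood at 0.23 ± 0.23 (limma adjusted p = 0.555). With each array centred on its adipocyte markers NQO1 stood at −0.41 and SRXN1 at −0.36, and neither passed (limma adjusted p = 0.374 and 0.443). On that scale 0.363% of all probe sets passed as lower in IMF.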
